A study of Mus musculus with 6 samples.

Results

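The cytosolic ribosomal protein genes were followed in bone marrow-derived basophils (BMBAs) of the mouse, 6 h after addition of IL-3 or of PBS. Members were taken by symbol alone: every row of the count table whose symbol is Rpl or Rps followed by a number (with the letter endings of the family), together with Rplp0, Rplp1, Rplp2 and Rpsa, without the Rps6k kinases and without symbols holding -ps. The rule found 89 of 37043 symbols. Of these, 77 are core genes, namely 43 of the large subunit, 31 of the small subunit and the 3 stalk genes, and 12 are paralog symbols named after a core gene. The GENCODE M21 annotation of build GRCm38 holds all 89, spread over 19 chromosomes, and lists 6 of the paralog symbols (Rpl32l, Rpl6l, Rps12l1, Rps3a2, Rps3a3 and Rps4l) as processed pseudogenes.

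The series holds 6 bulk RNA-seq libraries, 3 of cells given PBS and 3 of cells given 10 ng/mL IL-3, the cytokine that drives basophil growth and survival. Both groups came from bone marrow of C57BL/6J WT mice, cultured for 7 days at 0.3 ng/mL (IL-3, from the study's methods), enriched for basophils with an anti-CD49b antibody and beads, and stimulated for 6 h. The PBS cells are therefore cells raised in IL-3, and the labels do not say how much of it was left in the medium during the 6 h. By the study's description each stimulation had 3 cultures, and neither it nor the labels tie a culture to an animal, so p-values measure the spread between cultures.

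Each library holds between 10537540 and 13999287 counts. Summed CPM (counts scaled by library size and TMM factor, the scale of every level below) of 6 basophil markers was 9846 to 10992 in PBS and 14576 to 14791 in IL-3, with 4 of 6 called higher and 1 lower. Markers of monocytes and macrophages were also present and summed to 11564 to 12487 in PBS and 6015 to 6636 in IL-3, with 7 of 8 called lower and 1 higher. Of the other lists, mast cell markers were called higher in 4 of 6, neutrophil markers higher in 2 and lower in 1 of 5 tested, eosinophil markers higher in 1 and lower in 3 of 4 tested, and erythroid markers lower in 2 of 4 tested. Only 1 of 6 NK cell markers could be tested and was higher, and Gzma of the NK cell list and Alas2 of the erythroid list were at 0. Of all genes tested, 18% were called higher and 20.2% lower. The part of these shifts in the results on ribosomal protein genes was not tested, and in bulk samples fewer cells of a type and less RNA per cell cannot be told apart.

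Ribosomal proteins assemble with ribosomal RNA into the small subunit, which decodes mRNA, and the large subunit, which joins amino acids. The stalk proteins form a flexible arm of the large subunit that recruits and activates the translation factors. Transcripts of these genes typically begin with a run of pyrimidines, the 5′ terminal oligopyrimidine (TOP) tract, through which their translation is controlled by growth factor and nutrient signalling by way of mTOR and LARP1.

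The starts of 8 members that rose or fell are shown here because that tract is read from them. Rplp1 and Rpl3 are not among them, since the promoter set used had no entry for either. Each line gives 10 bases before and 20 bases after the RefSeq start (GRCm38.p6), 5′ to 3′ on the gene's strand, with capitals marking a run of at least 5 C or T that reaches within 3 bases of the start.
Rplp2: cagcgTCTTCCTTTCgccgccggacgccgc
Rps9: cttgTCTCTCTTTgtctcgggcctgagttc
Rps27: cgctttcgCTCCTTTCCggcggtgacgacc
Rpl41: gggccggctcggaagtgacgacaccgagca
Rpl7l1: gctgcgcaagcgcagtagctgaagcaccgg
Rpl22l1: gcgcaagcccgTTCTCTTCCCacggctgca
Rpl6: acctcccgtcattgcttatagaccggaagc
Rpsa: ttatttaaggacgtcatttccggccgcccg
These windows lie at chr7:141447641-141447670 (Rplp2, plus strand), chr7:3704031-3704060 (Rps9, plus), chr3:90213629-90213658 (Rps27, minus), chr10:128549149-128549178 (Rpl41, minus), chr17:46782637-46782666 (Rpl7l1, minus), chr3:28805498-28805527 (Rpl22l1, plus), chr5:121204491-121204520 (Rpl6, plus) and chr9:120127756-120127785 (Rpsa, plus). A run stands at the start in Rplp2, Rps9 and Rps27, which rose, and in Rpl22l1, which fell. No run of at least 5 C or T reaches within 3 bases of the start in Rpl41 and Rpl7l1, which rose, or in Rpl6 and Rpsa, which fell. Such a match is a description of the letters in these windows, and annotated starts can lie some bases away from the start used in these cells.

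With IL-3 the ribosomal protein genes moved little, and on balance slightly upward under TMM scaling but downward under library totals. All 77 core genes and 9 of the 12 paralog symbols passed the filter on low counts. In the edgeR quasi-likelihood test over 16675 genes (call at Benjamini-Hochberg adjusted p below 0.05), 25 of 86 tested members rose and 6 fell. The members called higher were 29.1% of those tested, beside 18% of all genes, and those called lower were 6.98%, beside 20.2% of all genes. In either direction the share was 36%, close to the 38.2% of all genes. Of the 31 calls, 13 of the rises and 3 of the falls were also made with each library in turn left out; the rises included Rplp1, Rpl7l1, Rpl23, Rpl23a, Rpl27, Rpl34, Rpl36, Rpl41, Rps9, Rps12, Rps26 and Rps27, and the falls were Rpl22l1, Rpl3 and Rpl6. Among the 2792 genes expressed at or above the lowest core gene (58.3 CPM), 43% were called higher and 20.8% lower, where the 81 members at that level had 29.6% and 6.17%.

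The changes were small in size. The median log2 fold change (IL-3 minus PBS) of the members was 0.065, with a middle range of -0.015 to 0.16, and 64 of 86 members lay within 0.20 of zero. Only Rplp1 moved by more than 0.5, which is 1.16% of members beside 29.5% of all genes. The spread of the members' log2 fold changes was 0.18 (SD over 86 genes), beside 0.65 over all genes tested, whose median was -0.0033. All 3 IL-3 libraries lay above all 3 PBS libraries for 30 members (34.9%, beside 23.8% of all genes) and below them for 10 (11.6%, beside 24.4%), or 46.5% in either direction, beside 48.2%.

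**Figure D1:**
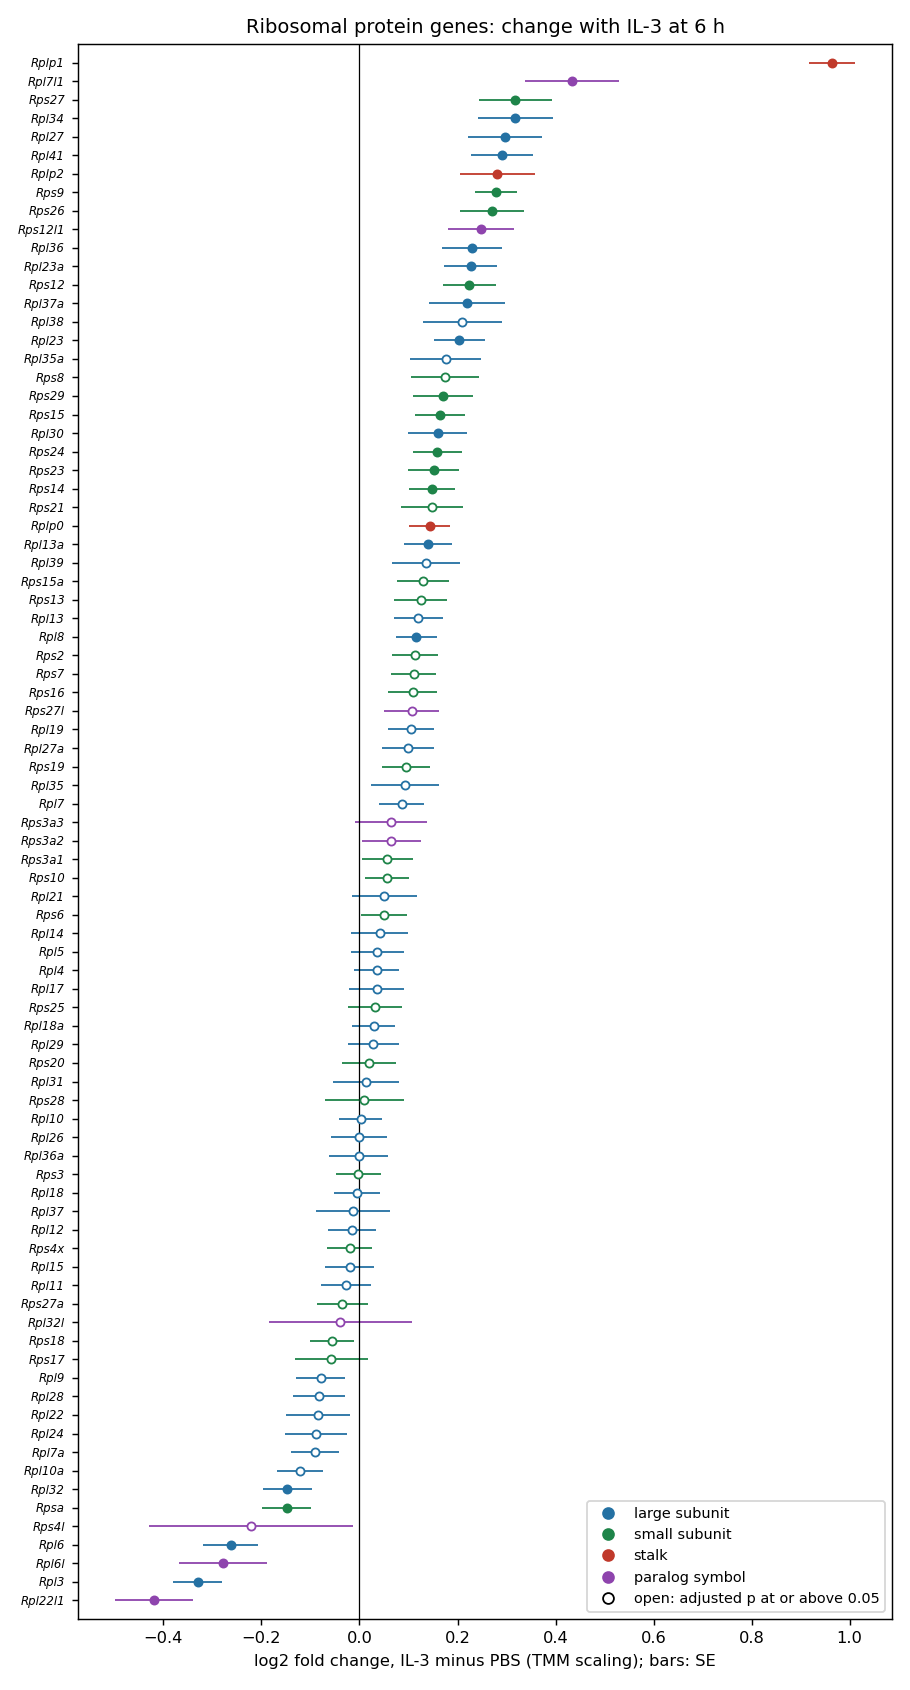
Log2 fold change (IL-3 minus PBS, TMM scaling) of the tested members (2 are not shown), sorted, with bars for the standard error of the edgeR fit over 3 against 3 libraries; filled points passed the test at adjusted p below 0.05, open points did not, and colours mark the large subunit, small subunit, stalk and paralog symbols. Rplp1 stands alone at 0.96, and every other member shown lies between -0.42 and 0.43.

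These directions depend on how libraries were scaled. Scaled to library totals alone, the median log2 fold change of all genes shifted to -0.17 and that of the members to -0.097, and the split of members called became 3 higher (3.49%, beside 10.2% of all genes) and 26 lower (30.2%, beside 30.1% of all genes) in place of 25 and 6. That shift applies to every value below, all given under TMM scaling unless stated otherwise. Of the 25 that rose, 22 were then not called and 0 were called lower; the 6 that fell were called lower again, and 20 more joined them. Under 3 further scalings (DESeq2 size factors, upper quartile, and TMM computed without the members) 19 to 26 members were called higher and 6 or 7 lower. Of all 16675 genes, 2785 to 3031 were then called higher and 3341 to 3530 lower. The 9 members called the same way in each of these scalings were Rplp1, Rpl7l1 and Rps9, which rose, and Rpl22l1, Rpl3, Rpl6, Rpl6l, Rpl32 and Rpsa, which fell.

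The share of all counts that the members took, which is their level scaled to library totals, was 3.44%, 3.56% and 3.63% in the PBS libraries and 3.37%, 3.45% and 3.397% in the IL-3 libraries, or 3.54% ± 0.0954 against 3.41% ± 0.0410 (SD, n = 3 each). The groups overlapped, since the second IL-3 library (3.45%) stood above the first PBS library (3.44%). Rows of ribosomal RNA took 15.2% to 17.4% of counts, and without them the members' share was 4.22% ± 0.0700 in PBS and 4.06% ± 0.0742 in IL-3, with no overlap (lowest PBS library 4.14%, highest IL-3 library 4.11%). Under TMM scaling the direction of the sum was the opposite: the members together held 32909 to 33817 CPM in the PBS libraries and 34946 to 36775 CPM in the IL-3 libraries. These sums include Rplp1, which alone went from a mean of 821 CPM in PBS to 1602 CPM in IL-3.

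**Figure D2:**
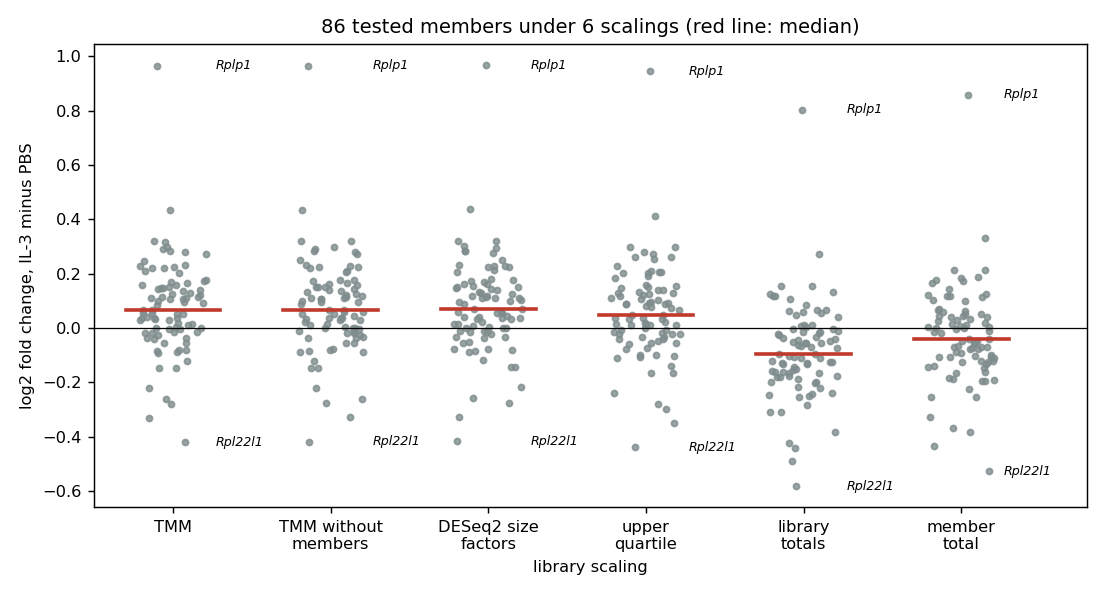
Log2 fold change (IL-3 minus PBS) of the 86 tested members, 1 point each, under 6 ways of scaling the libraries; the red line is the median of the members and the black line is 0. Medians lie slightly above 0 under TMM, TMM without members, DESeq2 size factors and upper quartile, and below 0 under library totals (-0.097) and the summed counts of the members (-0.040), while Rplp1 stays the highest and Rpl22l1 the lowest member in each.

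All 3 stalk genes were called higher under TMM scaling, beside 18% of all genes. Under library totals Rplp1 alone of the stalk was called higher, beside 10.2% of all genes. The largest change of the family was that of Rplp1. Rplp1 encodes one of the pair of small acidic P proteins of the stalk tip. It stood at 790.1, 862 and 812 CPM in the PBS libraries and at 1545, 1599 and 1663 CPM in the IL-3 libraries. The highest PBS library lay far below the lowest IL-3 library, and the log2 fold change was 0.96 ± 0.047 (SE; edgeR adjusted p = 1.5e-10), a 1.95-fold rise. Its log2 fold change ranged from 0.94 to 0.999 when each library in turn was left out and was 0.80 under library totals.

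Rplp2 encodes the partner P protein of the stalk tip. Its CPM was 271, 336 and 296 in PBS and 326, 377 and 392.3 in IL-3. The groups overlapped, with the second PBS library above the first IL-3 library. The log2 fold change was 0.28 ± 0.077 (SE; edgeR adjusted p = 0.0089), and without the first PBS library the adjusted p was 0.053.

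Rplp0 encodes the protein that anchors the P proteins to the large subunit. Its CPM was 1398, 1421 and 1446 in PBS and 1603, 1597 and 1509 in IL-3, without overlap. The log2 fold change was 0.14 ± 0.042 (SE; edgeR adjusted p = 0.014), but the call was lost without the first PBS or the second IL-3 library (highest adjusted p = 0.064), and the value was -0.018 under library totals and 0.22 with the length and GC correction. The unequal change within the stalk did not depend on scaling: as a share of all member counts, Rplp1 went from 2.45% to 4.45%, Rplp2 from 0.898% to 1.01% and Rplp0 from 4.25% to 4.36% (means of 3 libraries).

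Reads of Rplp1 can be split with near-identical rows, so its copies were measured too. Of the 50-base words of its transcripts, 60% occur in another gene of GENCODE M21, and 3 rows of the count table share at least 10% of their own words with it. The same 60 coding bases (bases 7 to 66 of the coding sequence) are printed for Rplp1 and these rows, from GENCODE M21 on GRCm38, with capitals marking bases that differ from Rplp1.
Rplp1: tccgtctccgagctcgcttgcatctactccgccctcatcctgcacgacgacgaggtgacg
Gm10073: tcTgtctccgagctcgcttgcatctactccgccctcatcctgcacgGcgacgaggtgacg
Gm11942: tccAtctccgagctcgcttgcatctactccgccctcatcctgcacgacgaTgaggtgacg
Gm17511: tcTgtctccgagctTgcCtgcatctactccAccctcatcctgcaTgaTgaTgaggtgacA
Rplp1 lies at chr9:61913284-61914542 (minus strand), Gm10073 at chr8:106572966-106573461 (minus), Gm11942 at chr4:32964888-32965232 (plus) and Gm17511 at chr7:127286044-127286385 (minus). Gm10073 is annotated as protein coding and the other 2 as processed pseudogenes. Over the coding sequence of Rplp1, Gm10073 differs at 5 of 345 bases (98.6% identical), Gm11942 at 9 of 345 (97.4%) and Gm17511 at 17 of 342 aligned bases (95.0%).

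The copies moved by nearly the same factor as Rplp1. Gm10073 went from 278 ± 15.3 to 545 ± 32.1 CPM, Gm11942 from 107 ± 9.46 to 208 ± 7.02 CPM and Gm17511 from 54.4 ± 3.70 to 98.2 ± 7.33 CPM (mean ± SD, n = 3 each). Their log2 fold changes were 0.97, 0.96 and 0.86, each called by edgeR and each without overlap between groups. Which of the 4 loci the reads came from cannot be told apart from gene counts.

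**Figure D3:**
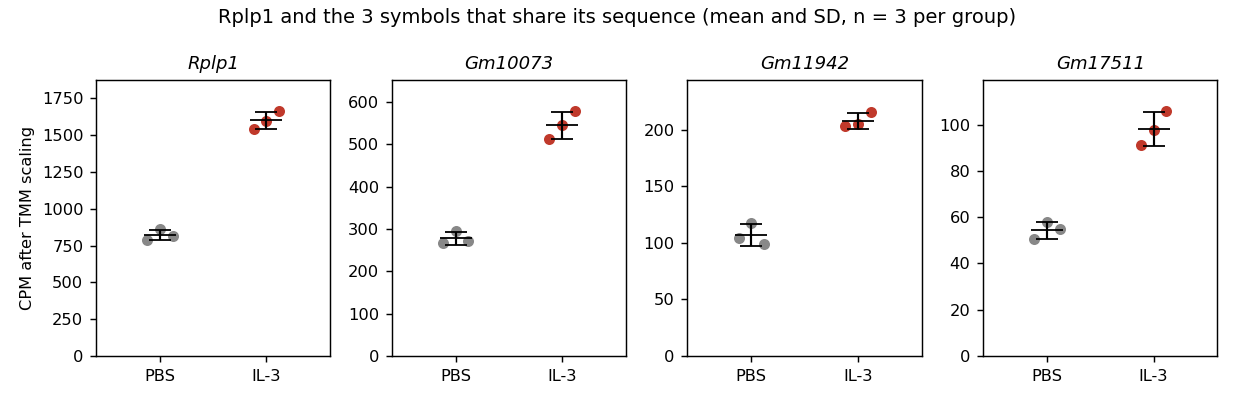
CPM after TMM scaling in each library for Rplp1 and the 3 rows that share its sequence; grey points are the PBS libraries, red points the IL-3 libraries, and bars the mean and SD (n = 3 per group), with every axis starting at 0. In all 4 panels the IL-3 libraries lie above the PBS libraries, from 1545 to 1663 against 790.1 to 862 CPM for Rplp1.

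Of the 43 core genes of the large subunit, 10 rose (23.3%, beside 18% of all genes) and 3 fell (6.98%, beside 20.2%), with a median log2 fold change of 0.035. The genes that rose were Rpl8, Rpl13a, Rpl23, Rpl23a, Rpl27, Rpl30, Rpl34, Rpl36, Rpl37a and Rpl41, from 0.12 (Rpl8) to 0.32 (Rpl34), and those that fell were Rpl3, Rpl6 and Rpl32. The remaining 30 did not pass the test. The call of Rpl8 was lost without any 1 of the 6 libraries, that of Rpl30 without the first PBS, the third PBS, the second IL-3 or the third IL-3 library, and that of Rpl37a without the first PBS, the second IL-3 or the third IL-3 library, and all 3 were lost with upper quartile scaling. The calls of Rpl30 (0.12) and Rpl37a (0.17) were also lost with the length and GC correction, under which Rpl8 was at 0.18, and that of Rpl30 with copies added (0.11). Under library totals Rpl8 was at -0.045 and Rpl30 at -0.0031.

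Rpl34, a component of the large subunit, stood at 206, 257 and 250.5 CPM in PBS and 272, 306 and 310.4 CPM in IL-3, without overlap. Its log2 fold change was 0.32 ± 0.076 (SE; edgeR adjusted p = 0.0036). Rpl27, another component of the large subunit, stood at 146, 151 and 133 CPM in PBS and 156, 176 and 196 CPM in IL-3, with a log2 fold change of 0.30 ± 0.076 (SE; adjusted p = 0.0059). Both were also called with each library in turn left out, though the lowest IL-3 library of Rpl27 lay close above the highest PBS library.

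Rpl3 encodes a protein whose central extension reaches toward the site where peptide bonds are made, and it fell the most among core genes. Its CPM was 407, 392.01 and 399 in PBS and 331, 312 and 311 in IL-3, well apart. The log2 fold change was -0.33 ± 0.050 (SE; edgeR adjusted p = 7.1e-05), -0.36 to -0.31 with each library in turn left out. The gene lies at chr15:80077791-80091868 (GRCm38, minus strand).

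Rpl6, a large subunit protein, stood at 298, 294 and 322 CPM in PBS and 264, 255 and 243 CPM in IL-3, without overlap, with a log2 fold change of -0.26 ± 0.056 (SE; adjusted p = 0.0015). Rpl32 stood at 647, 639 and 640.3 CPM in PBS and 541, 604 and 595 CPM in IL-3, with a log2 fold change of -0.15 (adjusted p = 0.031). The call of Rpl32 was lost without any 1 of the 3 PBS libraries or without the first IL-3 library. In both genes, every IL-3 library lay below every PBS library.

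Rpl5 and Rpl11, which with 5S ribosomal RNA form the particle that can bind MDM2, did not pass the test. The log2 fold change of Rpl5 was 0.037 ± 0.054 and that of Rpl11 was -0.027 ± 0.052 (SE). Rpl13a, known outside the ribosome for its part in silencing selected mRNAs in interferon-treated myeloid cells, stood at 873, 947 and 937 CPM in PBS and 983, 997 and 1057 CPM in IL-3. Its log2 fold change was 0.14 (edgeR adjusted p = 0.032), but the call was lost without the first PBS, the second IL-3 or the third IL-3 library, or with upper quartile scaling, and the value was -0.023 under library totals.

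Of the 31 core genes of the small subunit, 10 rose (32.3%, beside 18% of all genes) and 1 fell (3.23%, beside 20.2%), with a median log2 fold change of 0.11. Those that rose included Rps9, Rps12, Rps14, Rps15, Rps23, Rps24, Rps26, Rps27 and Rps29, and the one that fell was Rpsa. The remaining 20 did not pass the test. The calls of Rps15 and Rps24 were lost without the first PBS, the second IL-3 or the third IL-3 library, and those of Rps23 and Rps29 also without the third PBS library. Those of Rps23 and Rps29 were lost with upper quartile scaling, and that of Rps23 with the length and GC correction. Under library totals Rps23 was at -0.011 and Rps24 at -0.0035. The 2 subunits were not tested against each other.

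Rps9, which sits on the small subunit near the entry of the mRNA channel, had the smallest adjusted p of the small subunit genes. Its CPM was 1073, 1043 and 1069 in PBS and 1260.2, 1263 and 1341 in IL-3, well apart. The log2 fold change was 0.28 ± 0.043 (SE; edgeR adjusted p = 9.5e-05). It was the only small subunit gene called higher under every scaling tried.

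Rps27, a zinc finger protein of the small subunit, stood at 157, 179 and 184 CPM in PBS and 192, 227 and 229 CPM in IL-3. The groups did not overlap, and the log2 fold change was 0.32 ± 0.075 (SE; edgeR adjusted p = 0.0033). Rps14, another small subunit protein, went from 1002 ± 28.2 to 1111 ± 53.4 CPM (log2 fold change 0.15, adjusted p = 0.021). The call of Rps14 was lost without the first PBS, the second IL-3 or the third IL-3 library, and its value was -0.014 under library totals.

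Rpsa encodes a small subunit protein that is also known as the laminin receptor precursor. Its CPM was 523, 515 and 528 in PBS and 491, 477 and 444 in IL-3, without overlap. The log2 fold change was -0.15 ± 0.050 (SE; edgeR adjusted p = 0.028). The call was lost without any 1 library other than the first IL-3 library (highest edgeR adjusted p = 0.14), and with the length and GC correction, where the value was -0.057. Under library totals it was called lower again.

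Rps6, the substrate of the S6 kinases, Rps19, the gene most often mutated in Diamond-Blackfan anaemia, and Rps27a, made as a fusion with ubiquitin, did not pass the test. Their log2 fold changes were 0.050 ± 0.048, 0.094 ± 0.049 and -0.035 ± 0.052 (SE). In each of these genes the PBS and IL-3 libraries overlapped. With the length and GC correction Rps19 was called higher, at 0.17.

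**Figure D4:**
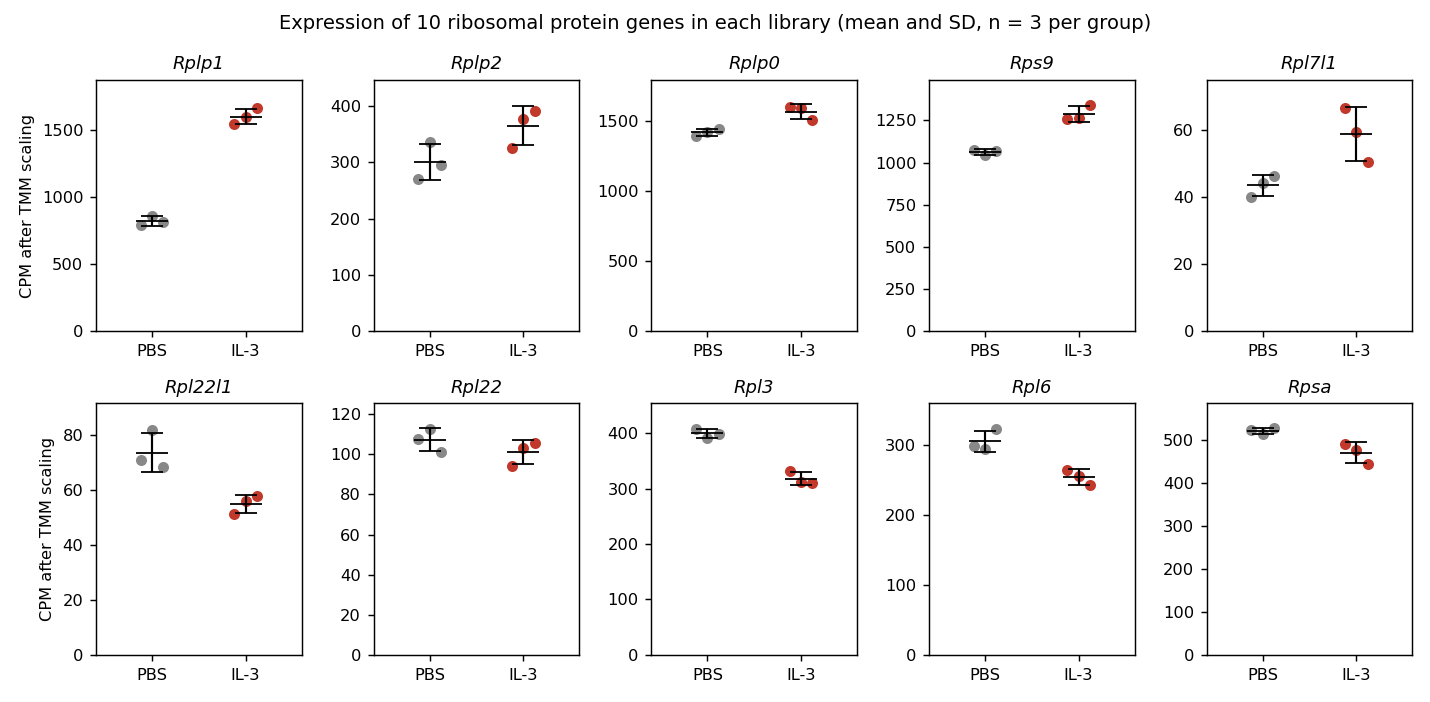
CPM after TMM scaling in each library for 10 members; grey points are the PBS libraries, red points the IL-3 libraries, and bars the mean and SD (n = 3 per group), with every axis starting at 0. The groups are well apart for Rplp1, Rps9 and Rpl3, separate for Rplp0, Rpl7l1, Rpl22l1, Rpl6 and Rpsa, and overlap for Rplp2 and Rpl22.

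Of the 9 paralog symbols tested, 2 were called higher and 2 lower (22.2% each way, close to the 18% and 20.2% of all genes). Rpl22l1 (chr3:28805436-28807424, plus strand), which can take the place of Rpl22 in the large subunit, fell the most of all members. Its CPM was 70.8, 81.6 and 68.3 in PBS and 51.1, 55.9 and 57.8 in IL-3, without overlap, with a log2 fold change of -0.42 ± 0.079 (SE; edgeR adjusted p = 0.00056). It was called lower under all 19 alternatives. Rpl22 itself, an RNA-binding protein that is dispensable for bulk translation, stood at 108, 113 and 101.2 CPM in PBS and 94.3, 103 and 106 CPM in IL-3. Those groups overlapped, and the log2 fold change of -0.085 ± 0.065 (SE) did not pass the test. The difference between the pair was not tested.

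Rpl7l1 (chr17:46773907-46782672, minus strand), a relative of Rpl7 known from ribosome assembly, showed the second largest rise. Its CPM was 40.04, 44.0 and 46.2 in PBS and 66.4, 59.2 and 50.5 in IL-3. The groups did not overlap, although the third IL-3 library lay close to the third PBS library, and the log2 fold change was 0.43 ± 0.096 (SE; edgeR adjusted p = 0.0020). Rpl7 went from 621 ± 15.4 to 659 ± 20.8 CPM, and its log2 fold change of 0.086 ± 0.047 (SE) did not pass the test.

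Rpl6l and Rps12l1, both annotated as processed pseudogenes, had calls of the same direction as the genes they resemble. Of the 50-base words of Rpl6l, 76.4% occur in other genes, and it had a log2 fold change of -0.28 (edgeR adjusted p = 0.022), beside -0.26 for Rpl6. All words of Rps12l1 (100%) occur in other genes, and it had a log2 fold change of 0.25 (adjusted p = 0.0085), beside 0.22 for Rps12. The call of Rpl6l was lost without the third PBS, the second IL-3 or the third IL-3 library, and that of Rps12l1 without the first PBS library. Whether these counts came from the pseudogenes or from their parents cannot be told apart.

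Rps27l, a target of p53, stood at 111, 116 and 116 CPM in PBS and 123, 122 and 126 CPM in IL-3. The groups did not overlap, but the log2 fold change of 0.11 ± 0.056 (SE) did not pass the test (edgeR adjusted p = 0.15). Rps4l averaged 8.20 ± 1.52 CPM with PBS and 7.07 ± 1.95 with IL-3 (SD, n = 3 each), its partner Rps4x averaged 445 ± 1.58 and 439 ± 8.46 CPM, and neither passed the test. Rps3a2, Rps3a3 and Rpl32l also had no call, with log2 fold changes of 0.065, 0.065 and -0.039.

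Rpl3l, Rpl10l and Rpl39l, known for expression in striated muscle or testis, failed the filter on low counts. They had 13, 2 and 1 counts in all 6 libraries together, where 3 counts in a library correspond to 0.214 to 0.285 CPM before TMM scaling. Their core partners Rpl10 (715 ± 5.90 to 717 ± 12.9 CPM) and Rpl39 (183 ± 15.6 to 201 ± 12.7 CPM) did not pass the test, with log2 fold changes of 0.0026 ± 0.044 and 0.14 ± 0.068 (SE).

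To see which members departed from the rest of the family, the same test was run with each library scaled to the summed counts of its members. In that fit 7 members were higher than the family (8.14%, beside 12.1% of all genes) and 15 lower (17.4%, beside 25.9%). The 7 were Rplp1, Rpl7l1, Rpl34, Rps27, Rpl41, Rps9 and Rps26, with Rplp1 at 0.86, Rpl7l1 at 0.33 and Rpl34 at 0.21 on the log2 scale. The 15 included Rpl22l1 (-0.53), Rpl3 (-0.43), Rpl6l (-0.38), Rpl6, Rpl32, Rpsa, Rpl10a, Rpl7a, Rpl24, Rpl22, Rpl28, Rpl9, Rps18 and Rps27a (-0.14). Rplp1 itself adds to the family total, and with that total taken without Rplp1 the calls were 12 higher (14%, beside 13.3% of all genes) and 11 lower (12.8%, beside 24%). Without the first PBS or the second IL-3 library only 2 members were higher than the family, and without the third IL-3 library 3 were. With each library in turn left out, 2 of the 7 (Rplp1 and Rps9) and 9 of the 15 (Rpl22l1, Rpl3, Rpl6l, Rpl6, Rpl32, Rpsa, Rpl10a, Rpl7a and Rpl28) kept their calls. Above the family, the calls of Rpl34, Rpl41 and Rps27 were lost without any of the 3 libraries just named, that of Rpl7l1 without the first PBS, the first IL-3 or the second IL-3 library, and that of Rps26 without any other than the first IL-3 library. Below it, the call of Rpl22 was lost without any other than the third PBS or the third IL-3 library, that of Rpl24 without the second PBS, the first IL-3 or the second IL-3 library, that of Rpl9 without the first PBS library, that of Rps18 without the second IL-3 library, and that of Rps27a without any other than the third IL-3 library.

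Per kb of transcript (the shortest complete principal coding transcript in GENCODE M21), levels of the core genes in PBS ran from 121 CPM per kb for Rpl21 to 1679 for Rps14, with a median of 462. In IL-3 they ran from 125 for Rpl21 to 3211 for Rplp1, with a median of 478. Rplp1 was second in PBS, at 1646 CPM per kb, close to Rps14, and first in IL-3. These are reads per length after amplification of poly(A) RNA and not amounts of protein.

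Short core genes had higher log2 fold changes than long ones. Across the 77 core genes the log2 fold change had a Spearman rho of -0.32 with transcript length, beside 0.099 over 1835 other genes of like length and expression. The 38 core genes shorter than 729 nt had a median log2 fold change of 0.14 and the 39 others 0.041, where other genes of the same length classes had 0.073 (219 genes) and 0.12 (1616 genes). With GC content, mean expression and share of words found in other rows, rho was 0.076, -0.016 and -0.031. These are descriptions across genes of the same 6 libraries, and genes are not replicates. With a length and GC trend removed from each library, 31 members were called higher (36%, beside 20.2% of all genes) and 5 lower (5.81%, beside 18.5%).

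**Figure D5:**
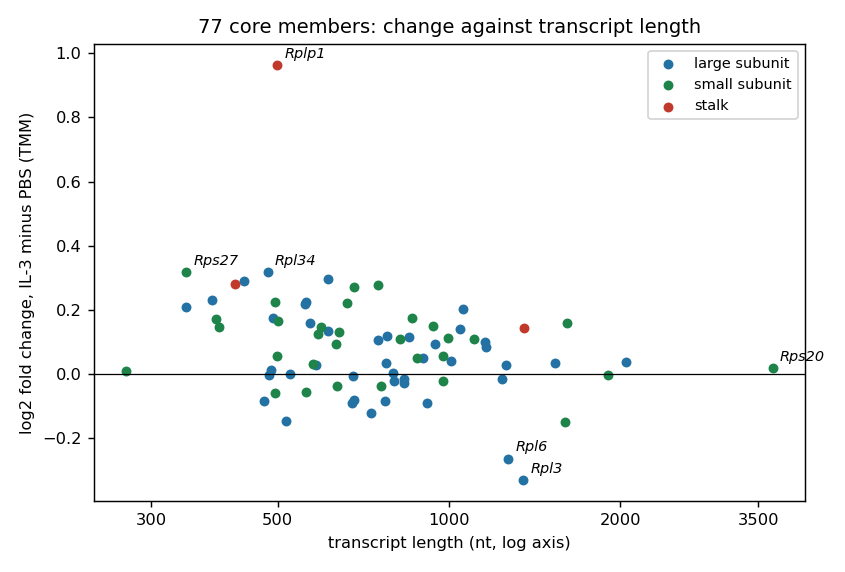
Log2 fold change (IL-3 minus PBS, TMM scaling) of the 77 core genes against transcript length in nt on a log axis, with colours for the large subunit, small subunit and stalk. The 8 genes above 0.25 are at most 751 nt long (Rps9), with Rplp1 alone at 0.96, while Rpl3 (1351 nt) and Rpl6 (1270 nt) are the lowest points.

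Rows that share sequence with members, from partial matches to full copies, are a general feature of this family and limit these values. Some of them are genes of small RNAs. In all, 667 rows share at least 10% of their 50-base words with a member, 83 of the 89 members have at least 1 such row, and a median of 20.9% of a member's own words occur elsewhere. These rows held 1.30% to 1.41% of counts, beside 3.37% to 3.63% for the members. Of the 560 such rows tested, 25 were called higher (4.46%, beside 18% of all genes) and 8 lower (1.43%, beside 20.2%). With their counts added to their members, 26 members rose (30.2%, beside 18.6% of all genes) and 7 fell (8.14%, beside 20.8%).

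Known motifs were counted in the promoters of members, with no test of the difference from other promoters. RefSeq promoters (250 bases before to 50 after the start, GRCm38.p6) were matched for 64 members, with 76 promoters, and compared with all 32851 promoters of the table. Rplp1 and Rpl3 were not among the matched members. A pyrimidine run at the start was found in 39.5% of member promoters and 17.8% of all. On either strand, CCGGAAG, read by the ETS factor GABP, was found in 35.5% and 8.86%, AAGATGG, the start of the site read by YY1, in 15.8% and 6.34%, and CACGTG, the E-box of MYC and MAX, in 10.5% and 7.15%. The median log2 fold change was 0.10 for the 28 tested members with a pyrimidine run and 0.037 for the 33 without. For CCGGAAG it was 0.093 in 25 members with the site and 0.068 in 36 without, for AAGATGG 0.13 in 10 with and 0.050 in 51 without, and for CACGTG it was 0.12 in 6 with and 0.056 in 55 without.

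Of the 6 genes in the list of promoter factors, 2 rose and 0 fell. For this and the following lists, 18% of all genes were called higher and 20.2% lower. Among genes expressed at or above the lowest core gene these shares were 43% and 20.8%. Myc went from 3.60 ± 0.316 to 22.9 ± 4.07 CPM (mean ± SD over 3 libraries), with a log2 fold change of 2.67 (edgeR adjusted p = 3.5e-09). Gabpb1, the partner subunit of GABP, rose by 0.56 on the log2 scale (adjusted p = 0.00078), while Gabpa (0.071), the subunit of GABP that binds DNA, Max (0.15), Yy1 (-0.038) and Sp1 (0.085), a general promoter factor whose site was not searched, did not pass the test; Max was called higher, at 0.21, with the length and GC correction.

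Of the 4 ribosomal proteins that the symbol rule leaves out, 3 rose and 1 fell, beside 18% and 20.2% of all genes. Their median log2 fold change was 0.16. Rpl36al had a log2 fold change of 0.18 and Fau, a fusion of a ubiquitin-like protein with a small subunit protein, had 0.13. The call of Rpl36al was lost without any 1 library other than the first PBS library, and that of Fau without any other than the first IL-3 library; under library totals Fau was at -0.028 and Rpl36al had no call at 0.022. Both calls were lost with upper quartile scaling, and that of Rpl36al also with DESeq2 and with the length and GC correction. Rack1, the scaffold protein on the head of the small subunit, fell, with a log2 fold change of -0.14 (adjusted p = 0.024) whose call was lost without the first PBS, the third PBS, the first IL-3 or the third IL-3 library, without the filter, and with the length and GC correction (-0.073).

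Other genes with TOP transcripts moved in both directions. Of 17 elongation factors and other TOP genes, 5 rose and 5 fell, beside 18% and 20.2% of all genes. Their median log2 fold change was -0.058. Tpt1, which encodes the translationally controlled tumour protein, went from 663 ± 36.7 to 971 ± 19.5 CPM (log2 fold change 0.55, adjusted p = 2.2e-07). Gas5, a host gene of small nucleolar RNAs, had 0.40, while the initiation factor genes Eif4b and Eif3f fell, with -0.37 and -0.31.

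Among 8 chaperones that escort single ribosomal proteins, 3 rose and 1 fell, beside 18% and 20.2% of all genes. Their median log2 fold change was 0.27. Bccip, a chaperone of the product of Rpl23, had 0.32 (adjusted p = 0.0065), Tsr2, that of Rps26, 0.57 (0.011), and Grwd1, that of Rpl3, 0.60 (0.040), where Grwd1 stood at 4.16, 5.77 and 5.62 CPM in PBS and 9.25, 8.88 and 5.49 CPM in IL-3 and the groups overlapped. Pdcd2, a chaperone of the product of Rps2, fell, with -0.40 (0.018). The calls of Bccip, Tsr2 and Grwd1 were lost under library totals, and that of Grwd1 also with DESeq2 and limma-voom. The call of Grwd1 was lost without the first PBS, the third PBS, the first IL-3 or the second IL-3 library, and that of Pdcd2 without the first PBS, the third PBS, the second IL-3 or the third IL-3 library.

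Of 9 genes that control translation of TOP transcripts, 3 rose and 1 fell, beside 18% and 20.2% of all genes. Their median log2 fold change was 0.23. Eif4ebp1, a repressor of cap-dependent translation that mTOR inactivates, fell from 56.8 ± 2.39 to 37.8 ± 0.561 CPM (log2 fold change -0.59, adjusted p = 9.6e-06). Its relative Eif4ebp2 (0.23), the cap-binding protein gene Eif4e (0.25) and the S6 kinase gene Rps6kb2 (0.43) rose, although the call of Eif4ebp2 was lost without the second IL-3 library and that of Eif4e without the first PBS or the third IL-3 library, and both under library totals.

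Of the 4 genes of the p53 pathway that senses free ribosomal proteins, 3 rose and 1 fell, beside 18% and 20.2% of all genes. Cdkn1a, the cell cycle inhibitor induced by p53, went from 148 ± 9.40 to 607 ± 15.2 CPM (log2 fold change 2.03, adjusted p = 1.4e-13). Mdm2 (0.23) and Mdm4 (0.33), whose products restrain p53, also rose, with both calls lost under library totals. Trp53, which encodes p53, fell, with a log2 fold change of -0.33 (adjusted p = 0.00083).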

How the data were processed

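Poly(A) RNA of each culture was amplified as whole-transcriptome cDNA and sequenced. The authors trimmed reads with Cutadapt 3.4, mapped them to reference RNA with Bowtie2 and deposited raw counts per gene symbol for the 6 libraries in 1 table. The study's methods name GRCm38 as the reference, whereas the labels name GRCm39, and no molecular identifiers, strand setting or treatment of reads with several matches is given in the sources used here. Reads could therefore be shared among rows with common sequence, and amplification adds error that counting error does not cover.

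Library totals ran from 10537540 to 13999287 counts, and the median SE of a member's log2 fold change was 0.054. Counts were fitted with edgeR 4.0.16 in R 4.3.3 (filterByExpr, TMM, quasi-likelihood F test, group as the only term, all 6 libraries, call at Benjamini-Hochberg adjusted p below 0.05 over 16675 genes). The study normalized and tested with TCC, which calls edgeR for such a design. CPM are counts scaled by the product of library total and TMM factor. Copies were found as rows of GENCODE M21 transcripts sharing at least 10% of their 50-base words with a member, and 96.2% of the 37043 symbols matched that annotation. Symbols with no count in any library numbered 4866. The script was tested on simulated data. Alternatives were other scalings, DESeq2 1.42.0, limma-voom (limma 3.58.1), no filter, a replicate block, other thresholds, added copies, and leaving out each library. Promoter letters come from RefSeq on GRCm38.p6.

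Members and gene lists were chosen with earlier results of these data known, so no p over a list is given. Named genes were the stalk genes, paralog pairs, 7 members with roles outside the ribosome, the 5 largest rises and falls called without overlap, the 3 largest departures each way from the family total, the 3 highest levels per kb, and up to 4 genes per context list. Other members named with values were chosen after their values were seen. Values of some genes are not reported here. No row outside these libraries was used. The lowest chi-square per degree of freedom between any 2 libraries was 2.93, so no library's counts were a copy of another's. This value cannot tell separate cultures from separate amplifications of the same culture.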

Additional observations from a re-analysis of the deposited data

How the results depend on the processing

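The number of members called higher (25) ranged from 13 to 32 when 1 library was left out, with 13 without the first PBS, 15 without the second IL-3 and 16 without the third IL-3 library. Members called lower (6) ranged from 3 to 5, with 3 without the third PBS library, the median log2 fold change of members from 0.045 to 0.085, calls in the context lists (28) from 20 to 26, and genes called overall from 2482 to 2788 higher and 2883 to 3108 lower. Members above the family total (7) ranged from 2 to 9, those below it (15) from 10 to 14, and the difference in the share of counts from -0.187 to -0.0931 percentage points. Under library totals alone 1699 genes were called higher and 5017 lower, and 3 members were higher and 26 lower with a median of -0.097, since every value shifts down by the same factor. There Rplp0 (-0.018), Rpl7 (-0.075), Rpl10 (-0.16), Rpl39 (-0.028), Rps27l (-0.056), Rps19 (-0.068), Rpl5 (-0.12), Rps6 (-0.11), Rpl13a (-0.023), Rps14 (-0.014), Rpl8 (-0.045), Rps23 (-0.011), Rps24 (-0.0035), Rpl30 (-0.0031), Rps3a2 (-0.097), Rps3a3 (-0.096), Rpl21 (-0.11), Fau (-0.028), Max (-0.016) and Sp1 (-0.076) had the opposite sign, as had Rpl10 with upper quartile scaling (-0.016) and with copies added (-0.0018). At adjusted p below 0.01, 15 members were higher and 3 lower (2163 and 2384 of all genes, or 13% and 14.3%), 16 context genes were called, and 2 members stood above and 8 below the family total. Tested against a fold of 1.2, 1595 genes were higher and 2184 lower, with 1 member each way (Rplp1 and Rpl22l1) and 7 context genes. Above the family total stood 12 members with TMM among members, 13 with DESeq2 and 12 without Rplp1 in the total, where Rpl7 was at 0.012, 0.014 and 0.011 and Rps19 at 0.018, 0.021 and 0.018 in place of negative values, and the cause was not tested. Without Rplp1 in the total, 14% of members were above it, beside 13.3% of all genes. For the other counts against the family total in this section no share of all genes is given.

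With 1 library left out, Rpl10 ranged from -0.0098 to 0.019, Rpl5 from -0.0064 to 0.071 and Rpl11 from -0.057 to 0.0030, and within the family Rpl7 from -0.063 to 0.019, Rpl39 from -0.027 to 0.070, Rps27l from -0.017 to 0.016 and Rps19 from -0.031 to 0.0077. The replicate block gave 25 members higher and 6 lower, losing the calls of Rpl8, Rpl30, Fau, Rpl36al and Grwd1 and among members gaining Rpl35a and Rpl38 as higher, and 8 and 16 against the family total. With that block, 2842 of all genes were called higher and 3247 lower under TMM scaling. Deviations of same-numbered libraries had correlations of -0.0087, -0.016 and -0.022 over all genes and of 0.49, 0.55 and -0.028 over the members, so the numbers were not taken to pair the samples, although libraries 1 and 2 deviated alike over the members. The alternatives with all copies added, with a length and GC correction, and with the total without Rplp1 were chosen after seeing the data. The median SE of a member's log2 fold change was 0.054, and a member without a call is not shown to be unchanged.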
